A study of Homo sapiens with 12 samples.

Results

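Proteasome genes were taken from the count table by symbol: those beginning with PSMA, PSMB, PSMC, PSMD, PSME, PSMF or PSMG and a digit, with no hyphen and no P and digits at the end. The rule found 48 genes of 22545. Of 53 symbols with such a beginning, 5 were left out, which were the antisense genes PSMA3-AS1, PSMB8-AS1, PSMD6-AS2 and PSMG3-AS1, and PSME3IP1. A total of 47 members passed the filter on low counts and were tested. The member that did not pass was PSMB11, the catalytic subunit of the thymus form, with 1 count in 1 untreated library and none in the other 11 libraries. The rule also takes in PSMC3IP, which is not a proteasome subunit but a cofactor of homologous recombination.

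RNA was sequenced from HaCaT cells, an immortalised human keratinocyte line that the labels give as wild type for every sample, in 4 groups of 3 libraries. Cells received M5 and lefamulin, M5 and retapamulin, M5 alone, or no treatment (labelled WT). M5 usually stands for a cocktail of inflammatory cytokines that is applied to cultured keratinocytes to model psoriasis. What it held here, and the doses, times and solvent, were not stated in the labels. Both compounds are antibiotics of the pleuromutilin class, and whether their doses were matched is not known. They were given only together with M5. Nothing says that the 3 libraries of a group came from separate cultures, so p-values may reflect only the technical spread between them.

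The proteasome degrades proteins marked with ubiquitin. Its 20S core is a barrel of alpha rings, which gate the entry, and beta rings, in which PSMB5, PSMB6 and PSMB7 hold the active sites. After exposure to interferon, cells assemble the immunoproteasome, in which PSMB8 replaces PSMB5, PSMB9 replaces PSMB6 and PSMB10 replaces PSMB7. The 19S particle binds ubiquitin chains, removes them and threads the substrate into the core, while the PSME activators open the core without ubiquitin. PSMG proteins and POMP help to build the core, and the transcription factor NFE2L1 raises many proteasome genes when the proteasome is impaired.

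Promoters are shown for the immunoproteasome subunits, whose RNA changed most, and for PSME2 and PSMG4, which shared a run of letters with PSMB10 and were also lower with both compounds. RefSeq windows (build GRCh38.p14) of the 250 bases before a transcription start were matched by symbol for 42 of the 48 members, as 52 windows. PSMA7, PSMB1, PSMB6, PSMB7, PSMD4 and PSMG3 had no entry. Both strands were searched for GAAANNGAA, the letters of an interferon-stimulated response element, for TTCNNNGAA, the letters of a STAT site, and for GGGNNTTTC, the letters of an NF-kB site. Capitals mark matches to these, and windows without capitals had no match.
PSMB10 at chr16:67936851-67937100, minus strand: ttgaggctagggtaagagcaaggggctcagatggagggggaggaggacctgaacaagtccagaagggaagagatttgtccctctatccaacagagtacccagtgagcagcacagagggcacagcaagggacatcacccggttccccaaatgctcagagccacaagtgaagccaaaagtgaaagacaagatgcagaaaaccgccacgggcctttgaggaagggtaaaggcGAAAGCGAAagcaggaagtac
PSME2 at chr14:24146611-24146860, minus strand: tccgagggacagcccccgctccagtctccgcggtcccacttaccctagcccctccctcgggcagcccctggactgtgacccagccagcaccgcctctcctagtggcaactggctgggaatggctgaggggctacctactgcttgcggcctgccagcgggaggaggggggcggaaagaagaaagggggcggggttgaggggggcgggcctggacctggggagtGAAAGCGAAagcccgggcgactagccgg
PSMG4 at chr6:3258697-3258946, plus strand: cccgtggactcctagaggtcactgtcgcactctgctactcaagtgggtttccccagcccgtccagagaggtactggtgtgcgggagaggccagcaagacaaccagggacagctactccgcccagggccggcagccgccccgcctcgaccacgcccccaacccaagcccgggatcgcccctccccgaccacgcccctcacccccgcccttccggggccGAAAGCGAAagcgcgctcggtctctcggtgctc
PSMB9 at chr6:32853942-32854191, plus strand: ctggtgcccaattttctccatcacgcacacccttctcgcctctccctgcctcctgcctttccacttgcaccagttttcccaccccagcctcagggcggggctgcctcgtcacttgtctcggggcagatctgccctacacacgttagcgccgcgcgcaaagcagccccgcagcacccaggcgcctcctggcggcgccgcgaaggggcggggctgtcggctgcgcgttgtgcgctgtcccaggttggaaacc
PSMB8 at chr6:32844680-32844929, minus strand: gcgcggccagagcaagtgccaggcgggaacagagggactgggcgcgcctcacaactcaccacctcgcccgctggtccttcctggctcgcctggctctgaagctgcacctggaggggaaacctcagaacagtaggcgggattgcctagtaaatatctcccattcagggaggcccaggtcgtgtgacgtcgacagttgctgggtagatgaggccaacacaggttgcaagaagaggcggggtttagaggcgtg

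The interferon letters were present in 5 of the 52 member windows (9.62%) and in 6.88% of all 35116 RefSeq windows of that length. The 5 belonged to PSMA4, PSMB4, PSMB10, PSME2 and PSMG4. PSMB10, PSME2 and PSMG4 shared the longer run GAAAGCGAAAGC, read from their windows after the matches were seen, which occurred in 14 windows (0.0399%) of all. It lay at -21 to -10 from the start in PSMB10, at -28 to -17 in PSME2 and at -33 to -22 in PSMG4. The STAT letters were found for 6 members (PSMA2, PSMB5, PSMB8, PSMC4, PSMD3 and PSME3; 11.5% of member windows against 6.57% of all), for PSMB8 in its other window, which begins downstream of the one shown. The NF-kB letters were found for PSMD3 and PSMD6 (3.85% against 4.16%). For TGACNNNGC, the core letters of the antioxidant response element that NFE2L1 binds, the share was 25% of member windows against 10.9% of all, and for CCAAT it was 40.4% against 32%. A match is a run of letters and was not tested for binding.

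Libraries held 35110519 to 37520999 counts, and proteasome genes took 0.754% to 0.766% of them with lefamulin, 0.748% to 0.755% with retapamulin, 0.868% to 0.882% in M5 alone and 0.854% to 0.881% in untreated cells. Levels are CPM, which are counts scaled to a common library size, here after TMM scaling, fold changes are log2 values with their standard error (SE), and a gene is called where the adjusted p of edgeR is under 0.05. Of the keratinocyte markers, KRT5 averaged 199 FPKM (fragments scaled to gene length and library total) with lefamulin, 179 with retapamulin, 288 in M5 alone and 800.0 in untreated cells, and KRT14 averaged 0.476, 0.411, 2.12 and 5.72 FPKM in the same groups. The other 3 markers had a different order. CDH3 averaged 172, 149.9, 170.2 and 61.9 FPKM in that order of groups, ITGA6 75.6, 90.7, 85.1 and 43.1, and TP63 15.8, 11.3, 32.7 and 16.2. The 5 keratinocyte markers summed to 459 to 467 FPKM with lefamulin, 429 to 435 with retapamulin, 571 to 590.2 in M5 alone and 917 to 947 in untreated cells. The 5 leukocyte markers summed to at most 0.322 FPKM with lefamulin, 0.236 with retapamulin, 1.11 in M5 alone and 0.359 in untreated cells, and PTPRC had at most 1 count in any library. CD14 led this list in M5 alone (0.971 FPKM), and CD79A led it with retapamulin (0.106). The 4 fibroblast markers summed to 2.50 to 2.80 FPKM with lefamulin, 1.45 to 1.71 with retapamulin, 0.942 to 1.15 in M5 alone and 1.29 to 1.46 in untreated cells, nearly all of it COL1A1. The 3 endothelial markers summed to 27.8 to 28.8 FPKM with lefamulin, 22.3 to 25.4 with retapamulin, 28.3 to 29.9 in M5 alone and 3.81 to 4.40 in untreated cells, nearly all of it CDH5, with PECAM1 at no more than 0.00250 FPKM as a group mean. The part of these markers in the proteasome results was not tested. In such bulk libraries, fewer cells of a kind and less RNA per cell cannot be told apart.

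Most proteasome genes were lower with either compound than in M5 alone, by a little, and the immunoproteasome subunits were lower by much more. With lefamulin, 35 of the 47 tested members fell (74.5%, beside 34.3% of all 14207 genes tested) and 4 rose (8.51%, beside 33.6%). With retapamulin, 31 fell (66.0%, beside 38.0%) and 6 rose (12.8%, beside 34.1%). The median fold change of the members was -0.18 with lefamulin and -0.12 with retapamulin, beside -0.00 and -0.05 over all genes tested. Scaling by library totals alone gave 39 lower members with each compound and 2 higher with lefamulin and 4 with retapamulin. All genes shifted down as well, with 5395 lower and 4385 higher with lefamulin and 6586 and 3942 with retapamulin. Their medians were then -0.05 and -0.19. RLE size factors gave 24 lower and 9 higher members with retapamulin, beside 5037 and 5084 of all genes. Both comparisons use the same M5 libraries.

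M5 alone set against untreated cells gave the reverse picture, with mostly small rises. The largest were those of PSMA6 (0.73) and PSMB10 (0.68). This comparison uses the same M5 libraries as those with the compounds, so rises here and falls there are not independent. Of the 47 members, 22 rose (46.8%, beside 28.3% of all genes tested) and 4 fell (8.51%, beside 26.9%), with a median of 0.09, beside -0.02 over all genes. That excess of rises depends on the scaling. On unadjusted library totals 9 members rose and 15 fell, beside 2675 and 5823 of all genes. The median of all genes was then -0.14 and that of the members -0.03. The members lay 0.11 above the median of all genes. Rescaling libraries shifts all genes nearly alike, so this gap is the same under either scaling and is no separate check.

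**Figure D1:**
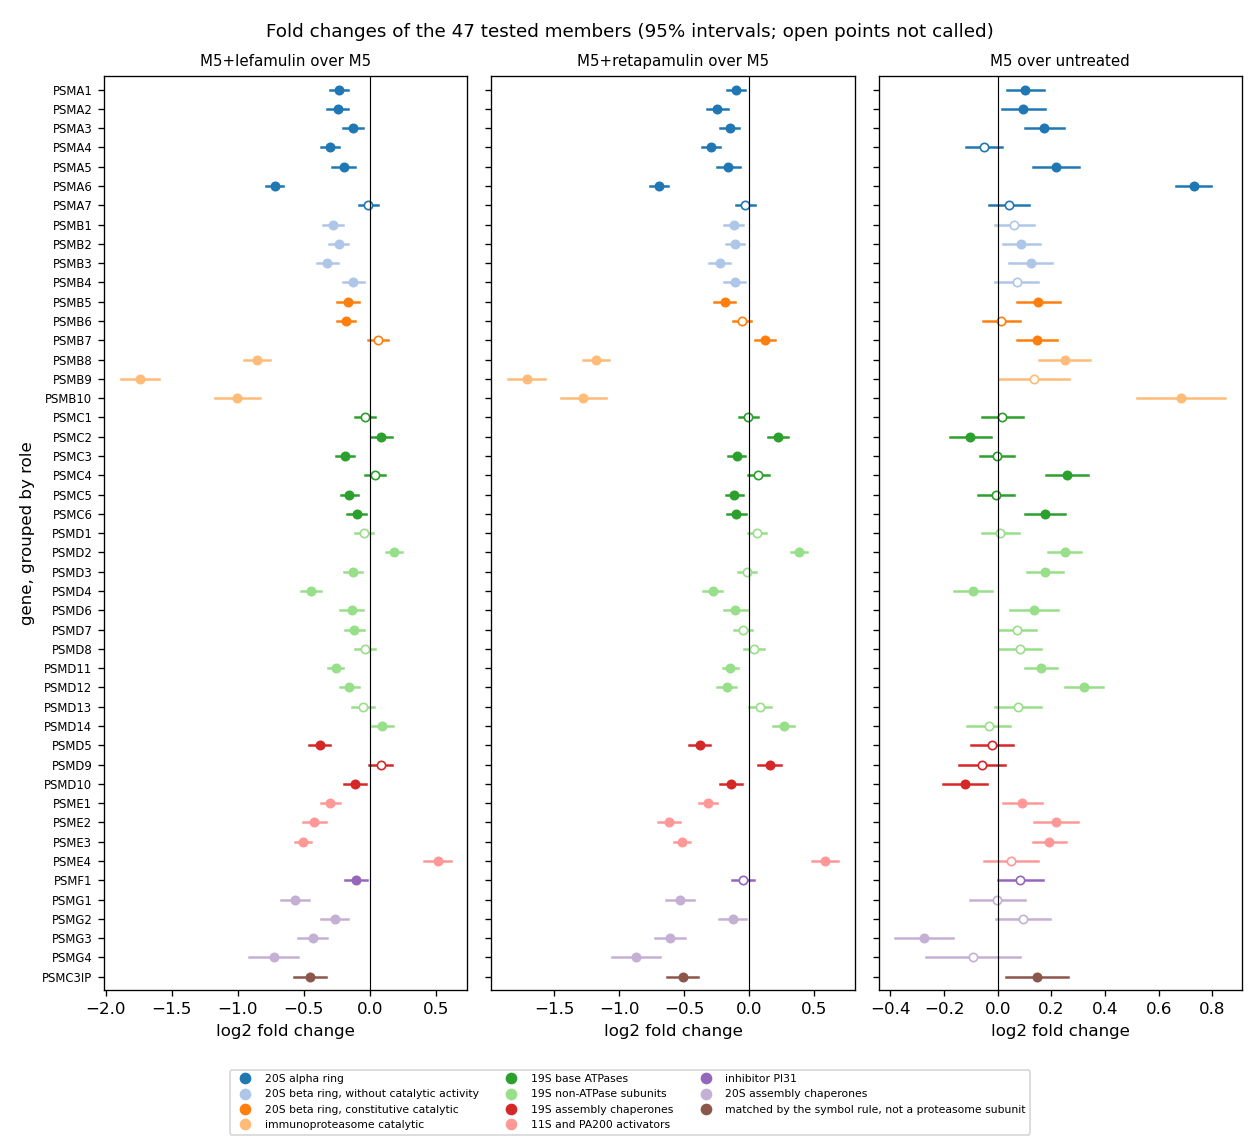
Fitted log2 fold changes (x axis) of the 47 tested proteasome genes (y axis, ordered and coloured by role) for M5 with lefamulin over M5, M5 with retapamulin over M5, and M5 over untreated; points are estimates, lines are 95% intervals, open points are not called, and the scale of the x axis differs between panels. PSMB8, PSMB9 and PSMB10 lie furthest to the left with both compounds, between -0.86 and -1.75, and PSME4 furthest to the right, at 0.51 and 0.58.

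PSMB9 was lowered the most of the immunoproteasome subunits. It had 9.59, 8.30 and 9.43 CPM with lefamulin, 9.16, 9.53 and 9.24 with retapamulin, 31.1, 31.0 and 29.6 in M5 alone and 26.6, 27.9 and 29.0 in untreated cells. The compound libraries lay at about the same level as each other and far under all M5 and untreated libraries, with no overlap. The fold change over M5 was -1.75 (SE 0.07, edgeR adjusted p = 8.93e-17) for lefamulin and -1.71 (SE 0.07, adjusted p = 9.18e-17) for retapamulin. M5 alone was not called against untreated cells (0.13, SE 0.06, adjusted p = 0.073), although its 3 libraries were above all untreated ones.

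PSMB10, which is encoded on another chromosome than PSMB8 and PSMB9, had the largest rise of the 3 with M5. It had 15.9, 15.1 and 13.3 CPM with lefamulin, 13.8, 12.5 and 10.4 with retapamulin, 31.2, 28.0 and 29.7 in M5 alone and 18.6, 18.3 and 18.5 in untreated cells. M5 libraries were above all others, and the compound libraries were below the untreated ones. M5 over untreated gave 0.68 (SE 0.08, edgeR adjusted p = 9.2e-08), lefamulin over M5 -1.005 (SE 0.08, adjusted p = 9.09e-11) and retapamulin over M5 -1.28 (SE 0.08, adjusted p = 1.14e-12). Its promoter is the first of those printed, with the interferon letters just ahead of the start.

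PSMB8 had 38.4, 35.9 and 37.0 CPM with lefamulin, 31.0, 27.9 and 30.0 with retapamulin, 66.4, 66.2 and 69.3 in M5 alone and 54.1, 59.1 and 56.7 in untreated cells. The 4 groups were ordered without overlap, with retapamulin lowest and M5 highest. The rise with M5 was 0.25 (SE 0.05, edgeR adjusted p = 6.58e-05). The fall was -0.86 (SE 0.05, adjusted p = 6.62e-14) with lefamulin and -1.18 (SE 0.05, adjusted p = 1.41e-16) with retapamulin. The antisense gene PSMB8-AS1 had 6.04% to 8.35% as many counts as PSMB8, and reads of the pair cannot be told apart where strand was not kept, which is not stated.

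The 3 immunoproteasome subunits fell further than each of the 44 other tested members with both compounds. The lowest of the 44 was PSMG4, at -0.73 with lefamulin and -0.87 with retapamulin. PSMB9 and PSMB10 fell by more than 2-fold with both compounds, and PSMB8 with retapamulin, beside 4.91% of all genes tested with lefamulin and 8.66% with retapamulin. The falls of the 3 subunits kept their call under all 16 alternative settings, and so did their falls below untreated cells. Over untreated cells, PSMB8 was at -0.61 with lefamulin and -0.93 with retapamulin, PSMB9 at -1.61 and -1.58, and PSMB10 at -0.32 and -0.59.

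**Figure D2:**
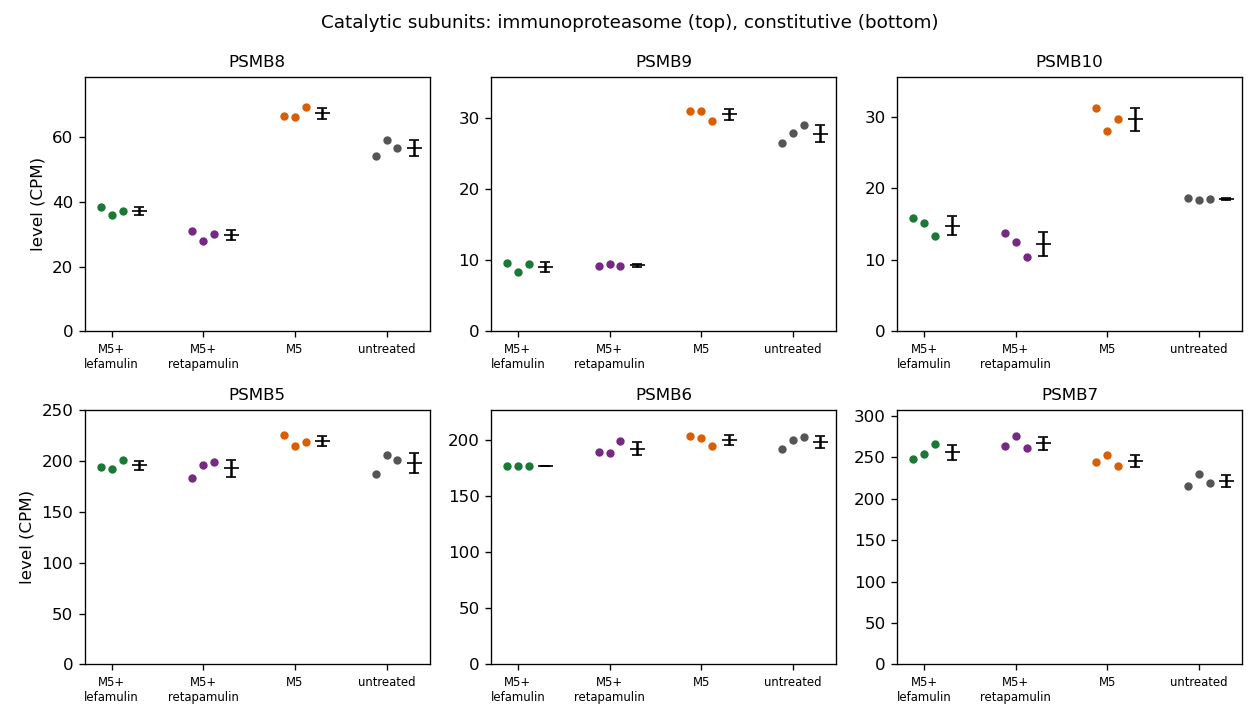
Level in CPM (y axis, from 0) of the immunoproteasome subunits PSMB8, PSMB9 and PSMB10 (top) and of the constitutive subunits PSMB5, PSMB6 and PSMB7 (bottom) in each library, by group; dots are libraries, bars are the mean and SD of 3. In the top row all compound libraries lie under all M5 and untreated libraries, and in the bottom row the groups lie close together.

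Their constitutive counterparts moved little. PSMB5, the chymotrypsin-like site, had 195, 193 and 201 CPM with lefamulin, 183, 196 and 199 with retapamulin, 225, 215 and 219 in M5 alone and 187, 206 and 201 in untreated cells. It fell, with fold changes of -0.16 (SE 0.04, edgeR adjusted p = 0.000632) with lefamulin and -0.19 (SE 0.04, adjusted p = 0.000143) with retapamulin. PSMB6, the caspase-like site, had 177, 177 and 177 CPM with lefamulin, 189, 189 and 199 with retapamulin, 203, 202 and 195 in M5 alone and 192, 200.5 and 203 in untreated cells. Its fall was called with lefamulin (-0.18, SE 0.03, adjusted p = 5.52e-05) and not with retapamulin (-0.06, SE 0.03, adjusted p = 0.125). PSMB7, the trypsin-like site, had 248, 254 and 265 CPM with lefamulin, 264, 276 and 261 with retapamulin, 244, 253 and 239 in M5 alone and 216, 229 and 219 in untreated cells. Its fold change was 0.06 with lefamulin (adjusted p = 0.135) and 0.12 with retapamulin (adjusted p = 0.00401), and this last rise turned to -0.01 on library totals. The rises of PSMB5 and PSMB7 with M5, 0.15 and 0.15 (adjusted p = 0.002 and 0.00116), lost their call on library totals, at 0.03 for both.

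The balance within each pair of interchangeable subunits does not depend on how libraries are scaled. As a share of the summed FPKM of the pair, PSMB8 with PSMB5 stood at 13.4% ± 0.422 with lefamulin, 11.2% ± 0.880 with retapamulin, 19.98% ± 0.567 in M5 alone and 18.9% ± 0.202 in untreated cells (SD, n = 3 in every group). PSMB9 with PSMB6 stood at 4.10% ± 0.311 with lefamulin, 3.87% ± 0.157 with retapamulin, 11.2% ± 0.0568 in M5 alone and 10.4% ± 0.175 in untreated cells. PSMB10 with PSMB7 stood at 5.50% ± 0.638 with lefamulin, 4.41% ± 0.567 with retapamulin, 10.9% ± 0.721 in M5 alone and 7.75% ± 0.289 in untreated cells. In RNA, the constitutive form thus held the larger share of every pair in every library. The log2 ratio of the pair differed from M5 by -0.69, -1.57 and -1.07 with lefamulin and by -0.99, -1.65 and -1.41 with retapamulin, in the order PSMB8, PSMB9, PSMB10. M5 differed from untreated cells by 0.10, 0.12 and 0.53 in the same order. None of the groups overlapped in these 9 comparisons, and each had an exact two-sided permutation p of 0.1, the smallest that 3 libraries against 3 allow.

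**Figure D3:**
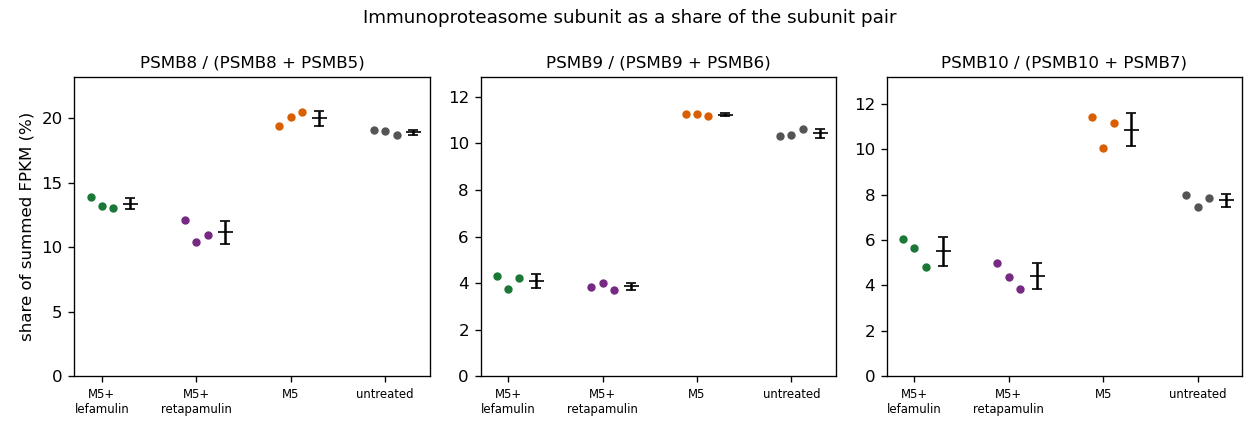
Share of the immunoproteasome subunit in the summed FPKM of its pair (y axis, percent, from 0) in each library, by group; dots are libraries, bars are the mean and SD of 3. All 3 shares are highest in M5 alone, at 19.98%, 11.2% and 10.9%, and lower with either compound than in untreated cells.

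The 7 subunits of the alpha ring were lower with both compounds except PSMA7. With each compound 6 of the 7 fell (85.7%, beside 34.3% of all genes tested with lefamulin and 38.0% with retapamulin), with a median of -0.24 with lefamulin and -0.16 with retapamulin. With M5 alone 5 rose over untreated cells (71.4%, beside 28.3%), with a median of 0.10. PSMA7, one of the members with the highest level per length (between 306 and 362 FPKM as group means), was not called in any comparison, with fold changes between -0.03 and 0.04. The summed level of the alpha ring was 839 ± 13.2 FPKM with lefamulin, 795 ± 5.23 with retapamulin, 986 ± 12.8 in M5 alone and 962 ± 28.3 in untreated cells (SD, n = 3 in every group). FPKM carries no TMM scaling, and divided by the TMM factor of each library the sums were 857 ± 16.4, 864 ± 5.39, 975 ± 10.8 and 876 ± 29.9 in the same order. The compound groups were then close to untreated cells, and most alpha subunits were not called between them. Of the 7, 3 were lower with lefamulin (42.9%, near the 37.1% of all genes tested) and 2 with retapamulin (28.6%, beside 40.9%).

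PSMA6 stood apart from the ring it belongs to. It had 203, 208 and 215 CPM with lefamulin, 209, 212 and 215 with retapamulin, 346, 342 and 344 in M5 alone and 202, 208 and 212 in untreated cells. M5 libraries were far above the rest, and the compound libraries overlapped with the untreated ones. The rise with M5 was 0.73 (SE 0.03, edgeR adjusted p = 7.4e-16), the largest among members, and the other alpha subunits were between -0.05 and 0.22. The fall was -0.72 (SE 0.03, adjusted p = 6.26e-16) with lefamulin and -0.70 (SE 0.03, adjusted p = 9.5e-16) with retapamulin. Against untreated cells the fold change was 0.01 with lefamulin (95% interval -0.06 to 0.07) and 0.03 with retapamulin (-0.03 to 0.10). In RefSeq the next protein-coding gene is NFKBIA, an inhibitor and target of NF-kB, and a read-through transcript, PRORP-PSMA6, overlaps PSMA6. NFKBIA, looked up after the values of PSMA6 were seen, averaged 204 ± 4.91 CPM with lefamulin, 185 ± 2.07 with retapamulin, 402 ± 9.61 in M5 alone and 77.0 ± 1.40 in untreated cells. PRORP differed by 0.15 in M5 over untreated, -0.18 with lefamulin over M5 and -0.26 with retapamulin over M5. Whether reads of these neighbours were counted for PSMA6 was not tested.

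The 4 beta subunits without an active site fell with both compounds (100%, beside 34.3% of all genes tested with lefamulin and 38.0% with retapamulin). PSMB1, PSMB2, PSMB3 and PSMB4 were at -0.28, -0.24, -0.32 and -0.12 with lefamulin and at -0.12, -0.11, -0.23 and -0.11 with retapamulin. Of these, PSMB2 and PSMB3 rose with M5 (0.09 and 0.12). Taken over the 14 core subunits other than those of the immunoproteasome and PSMB11, 12 fell and none rose with lefamulin (median -0.22), 11 fell and 1 rose with retapamulin (-0.14), and 9 rose and none fell with M5 (0.10). The 12 and 11 that fell were 85.7% and 78.6%, beside 34.3% and 38.0% of all genes tested, and the 9 that rose were 64.3%, beside 28.3%.

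The 19S particle moved less evenly than the core. Of its 6 ATPases, which unfold the substrate, 3 fell (50%, beside 34.3% of all genes tested with lefamulin and 38.0% with retapamulin) and 1 rose (16.7%, beside 33.6% and 34.1%) with each compound over M5. PSMC2 was the one that rose, with 113, 119 and 117 CPM with lefamulin, 131, 126 and 127 with retapamulin, 110.0, 107 and 112 in M5 alone and 116, 116 and 122 in untreated cells. Its lefamulin libraries lay just above the M5 libraries, and its retapamulin libraries above all others. The fold change was 0.09 (SE 0.04, edgeR adjusted p = 0.0418) with lefamulin, which lost its call in 9 of 16 alternative settings, and 0.22 (SE 0.04, adjusted p = 9.05e-06) with retapamulin. PSMC2 was lower in M5 alone than in untreated cells (-0.10, edgeR adjusted p = 0.0232), a call lost in 5 of 16 alternatives. Over untreated cells it was not called with lefamulin (-0.01, adjusted p = 0.738) and was higher with retapamulin (0.12, adjusted p = 0.00469). PSMC4 rose with M5 (0.26, SE 0.04, adjusted p = 3.17e-06) and was not called with either compound over M5 (0.04 and 0.07).

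Of the 11 other 19S subunits, 6 fell (54.5%, beside 34.3% of all genes tested) and 2 rose (18.2%, beside 33.6%) with lefamulin over M5. With retapamulin over M5, 4 fell, which at 36.4% was near the 38.0% of all genes, and 2 rose (18.2%, beside 34.1%). With M5 over untreated cells 5 rose (45.5%, beside 28.3%) and 1 fell (9.09%, beside 26.9%). PSMD2, the scaffold subunit that binds ubiquitin-like domains, was the exception in size. It had 895, 879 and 886 CPM with lefamulin, 993, 1033 and 1037 with retapamulin, 809.9, 754 and 784 in M5 alone and 652, 654 and 669.9 in untreated cells. The groups did not overlap and were ordered from untreated over M5 and lefamulin to retapamulin. The fold change was 0.25 (SE 0.03, edgeR adjusted p = 1.27e-07) for M5 over untreated cells. It was 0.18 (SE 0.03, adjusted p = 8.75e-06) for lefamulin and 0.38 (SE 0.03, adjusted p = 2.36e-11) for retapamulin over M5. PSMD14, the deubiquitinase of the lid, also rose, by 0.10 with lefamulin (adjusted p = 0.0345, lost in 9 of 16 alternatives) and by 0.26 with retapamulin (adjusted p = 1.71e-06).

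PSMD4, a ubiquitin receptor, went the other way. It had 112, 112 and 117 CPM with lefamulin, 125, 129 and 127 with retapamulin, 158, 152 and 154 in M5 alone and 160.1, 168 and 166 in untreated cells. Lefamulin libraries were lowest, and the groups of M5 with and without a compound did not overlap. The fold change over M5 was -0.45 (SE 0.04, edgeR adjusted p = 5.24e-11) with lefamulin and -0.28 (SE 0.04, adjusted p = 1.25e-07) with retapamulin. With M5 over untreated cells it was -0.09 (edgeR adjusted p = 0.029), a call lost in 6 of 16 alternatives. PSMD12, a lid subunit, had the second largest rise with M5 outside the immunoproteasome (0.32, SE 0.03, adjusted p = 1.92e-08) and fell with lefamulin (-0.15) and retapamulin (-0.17). PSMD11, another lid subunit, rose by 0.16 with M5 and fell with the compounds, with fold changes of -0.26 and -0.15 with lefamulin and retapamulin.

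The activators split by kind. PSME1 and PSME2 form the interferon-inducible PA28 cap, PSME3 forms the nuclear PA28 gamma cap, and PSME4 is PA200, a large nuclear activator. PSME2 had 146, 145 and 155 CPM with lefamulin, 125, 129 and 134 with retapamulin, 203, 202 and 191 in M5 alone and 163, 179.7 and 170.4 in untreated cells. The groups did not overlap, and retapamulin libraries were lowest. It fell, with fold changes of -0.42 (SE 0.04, edgeR adjusted p = 1.92e-09) with lefamulin and -0.62 (SE 0.04, adjusted p = 1.18e-12) with retapamulin, and rose by 0.22 with M5 (adjusted p = 6.72e-05). This last call was lost in 1 alternative setting, at an adjusted p of 0.0962.

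PSME1 had 141, 145 and 140.3 CPM with lefamulin, 143, 141 and 137 with retapamulin, 175, 175 and 174 in M5 alone and 157, 169 and 165 in untreated cells. The compound libraries lay under all others. The falls were -0.30 and -0.32 (SE 0.03 each, edgeR adjusted p = 4.75e-08 and 1.42e-08) with lefamulin and retapamulin, and the rise with M5, 0.09 (adjusted p = 0.0268), turned to -0.03 on library totals. PSME3 had 247, 246 and 255 CPM with lefamulin, 241, 250.1 and 251 with retapamulin, 353, 351 and 357 in M5 alone and 312, 307 and 311 in untreated cells. Its compound libraries were lowest and its M5 libraries highest, with no overlap between compound, M5 and untreated libraries. The fold change over M5 was -0.51 (adjusted p = 1.91e-13) with lefamulin and -0.52 (adjusted p = 8.86e-14) with retapamulin.

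PSME4 was the member that rose most with both compounds. It had 183, 188 and 183 CPM with lefamulin, 193, 195 and 194 with retapamulin, 123, 125 and 139 in M5 alone and 132, 113 and 129 in untreated cells. All compound libraries were above all others, and M5 and untreated libraries overlapped. The rise was 0.51 (SE 0.05, edgeR adjusted p = 1.19e-09) with lefamulin and 0.58 (SE 0.05, adjusted p = 8.94e-11) with retapamulin, and M5 over untreated gave 0.05 (adjusted p = 0.415). PSMF1, the inhibitor PI31, fell slightly with lefamulin (-0.11, SE 0.04, adjusted p = 0.0255), with groups that overlapped, and was not called with retapamulin (-0.05).

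**Figure D4:**
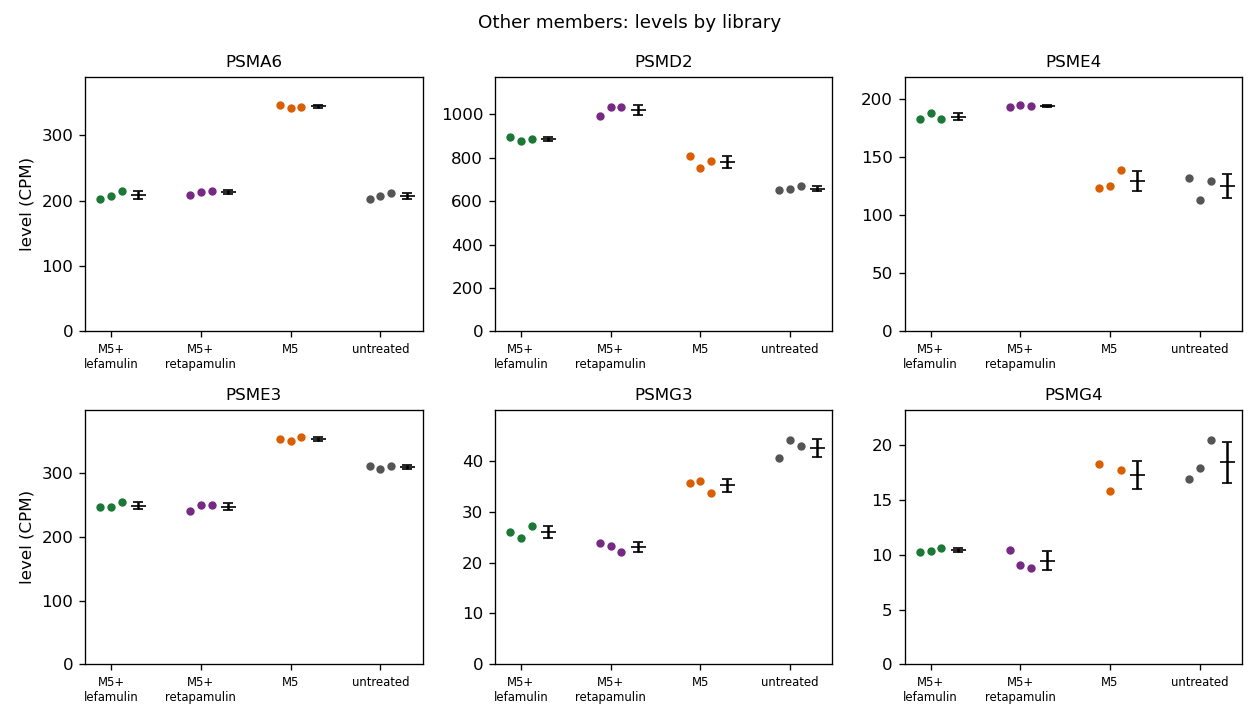
Level in CPM (y axis, from 0) of the alpha subunit PSMA6, the 19S scaffold PSMD2, the activators PSME4 and PSME3 and the assembly chaperones PSMG3 and PSMG4 in each library, by group; dots are libraries, bars are the mean and SD of 3. PSMA6 is high in M5 alone, PSME4 is high with either compound, and both chaperones are low with either compound.

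The 4 chaperones of core assembly act as the pairs PSMG1 with PSMG2 and PSMG3 with PSMG4. All 4 fell with both compounds over M5 (100%, beside 34.3% of all genes tested with lefamulin and 38.0% with retapamulin). Their median was -0.50 with lefamulin and -0.57 with retapamulin, beside -0.0007 and -0.05 over all genes. PSMG4 had 10.3, 10.3 and 10.7 CPM with lefamulin, 10.4, 9.06 and 8.83 with retapamulin, 18.3, 15.8 and 17.7 in M5 alone and 16.9, 17.9 and 20.5 in untreated cells. Compound libraries were below all others, and M5 and untreated libraries overlapped. The fold change over M5 was -0.73 (SE 0.09, edgeR adjusted p = 1.03e-07) with lefamulin and -0.87 (SE 0.09, adjusted p = 5.13e-09) with retapamulin.

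PSMG3 was the only chaperone of core assembly that was also called lower in M5 alone than in untreated cells. It had 26.0, 24.8 and 27.2 CPM with lefamulin, 23.9, 23.3 and 22.0 with retapamulin, 35.6, 36.1 and 33.7 in M5 alone and 40.6, 44.0 and 42.9 in untreated cells. The 4 groups were ordered without overlap. M5 over untreated gave -0.27 (SE 0.05, edgeR adjusted p = 8.55e-05), and lefamulin and retapamulin over M5 gave -0.43 and -0.61 (adjusted p = 1.59e-07 and 4.96e-10). PSMG1 had 35.0, 36.7 and 35.2 CPM with lefamulin, 34.7, 36.4 and 38.4 with retapamulin, 50.5, 52.5 and 55.5 in M5 alone and 49.9, 54.0 and 54.9 in untreated cells, and PSMG2 was at -0.26 with lefamulin and -0.13 with retapamulin over M5. The summed level of the 4 was 70.2 ± 0.714 FPKM with lefamulin, 67.6 ± 0.680 with retapamulin, 95.3 ± 2.13 in M5 alone and 106 ± 4.69 in untreated cells, and after TMM scaling 71.7 ± 0.535, 73.5 ± 1.43, 94.3 ± 1.32 and 96.9 ± 5.04.

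The chaperones of 19S assembly did not share 1 direction. PSMD5 fell, with fold changes of -0.38 with lefamulin and -0.38 with retapamulin (edgeR adjusted p = 3.61e-09 and 2.82e-09), and PSMD10, also known as gankyrin, fell, with fold changes of -0.11 and -0.14 (adjusted p = 0.0165 and 0.0032). PSMD10 was also lower in M5 alone than in untreated cells (-0.12, edgeR adjusted p = 0.0109), a call lost in 1 of 16 alternatives. PSMD9 rose with retapamulin (0.16, SE 0.04, adjusted p = 0.00175) and was not called with lefamulin (0.08). PSMC3IP, the recombination cofactor, fell, with fold changes of -0.45 with lefamulin and -0.51 with retapamulin.

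Set directly against each other, the compounds differed most in PSMB8. Of the 47 members, 4 were higher (8.51%, beside 18.8% of all genes tested) and 14 lower (29.8%, beside 21.2%) with lefamulin than with retapamulin. PSMB8 was higher with lefamulin (0.32, SE 0.05, adjusted p = 2.13e-05 by edgeR; 95% interval 0.22 to 0.43), a call that held under all 16 alternatives, and so was PSME2 (0.20, SE 0.04, adjusted p = 0.000443). PSMB10 was higher as well (0.27, SE 0.09, adjusted p = 0.0167), but its groups overlapped, and the call was lost without lefamulin replicate 1 (0.0916), lefamulin replicate 2 (0.0552) or retapamulin replicate 3 (0.144). PSMB9 differed by -0.03 (95% interval -0.19 to 0.13, adjusted p = 0.785), with a sign that flipped to 0.06 on library totals. The difference in the PSMB8 to PSMB5 ratio was 0.30 with no overlap (exact two-sided permutation p = 0.1), that of PSMB9 to PSMB6 was 0.09 (p = 0.3) and that of PSMB10 to PSMB7 was 0.34 (p = 0.2).

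PSMD2 was lower with lefamulin than with retapamulin (-0.20, SE 0.03, adjusted p = 7.03e-06 by edgeR), also under all alternatives. PSMD14 (-0.17), PSMD4 (-0.16), PSMB1 (-0.16) and PSMB6 (-0.12) were lower, and PSMG3 (0.17) was higher, each with its call lost under at least 1 alternative. The split between higher and lower turned with the scaling, to 16 higher and 1 lower on library totals, beside 4436 and 1660 of all genes. The median was then 0.10 over all genes and 0.05 over the members. The interval of PSMA6 was -0.09 to 0.04, of PSME3 -0.05 to 0.07, of PSME4 -0.17 to 0.03 and of PSMG4 -0.05 to 0.34, and none of the 4 was called.

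**Figure D5:**
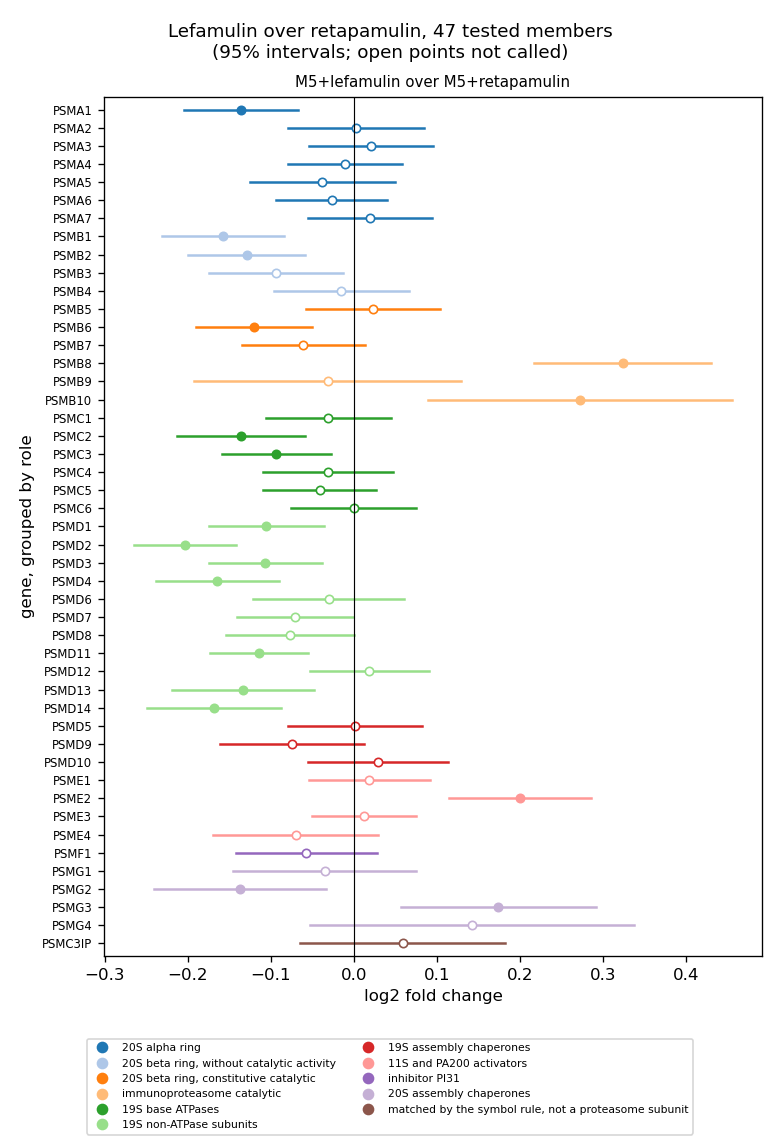
Fitted log2 fold change (x axis) of M5 with lefamulin over M5 with retapamulin for the 47 tested proteasome genes (y axis, ordered and coloured by role); points are estimates, lines are 95% intervals and open points are not called. PSMB8 and PSMB10 lie furthest to the right, at 0.32 and 0.27, and PSMD2 furthest to the left, at -0.20.

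Against untreated cells, the cells given M5 and a compound had less RNA of the immunoproteasome, the PA28 caps and most PSMG chaperones and more of PSMD2 and PSME4. Of the 47 members, 24 were lower (51.1%, beside 37.1% of all genes tested) and 5 higher (10.6%, beside 36.9%) with lefamulin. With retapamulin 18 were lower (38.3%, beside 40.9%) and 11 higher (23.4%, beside 37.6%). The share of lower members with retapamulin was thus near that of all genes. On library totals, 42 were lower with each compound and 3 and 2 were higher with lefamulin and retapamulin. Of all genes, 6677 and 7657 were then lower and 4204 and 3891 higher, with medians of -0.18 and -0.31. PSMD2 was at 0.43 with lefamulin and 0.63 with retapamulin, PSME4 at 0.56 and 0.63, and PSMC4 at 0.30 and 0.33. The call of PSMC4 with retapamulin was lost in 4 of 16 alternatives, at 0.074 to 0.075 on library totals and FPKM. PSMG3 was at -0.71 and -0.88, and PSMG4 at -0.82 and -0.96. The summed level of the 3 immunoproteasome subunits was 47.4 ± 2.21 FPKM with lefamulin, 37.9 ± 2.31 with retapamulin, 106 ± 1.33 in M5 alone and 91.5 ± 1.97 in untreated cells, and after TMM scaling 48.4 ± 2.13, 41.1 ± 2.09, 104 ± 1.75 and 83.4 ± 2.40. That of PSMB5, PSMB6 and PSMB7 was 614 ± 9.52 with lefamulin, 602 ± 5.08 with retapamulin, 670.5 ± 17.6 in M5 alone and 679 ± 18.3 in untreated cells. Its order turned with the scaling, since after TMM scaling it was 627 ± 12.05, 654 ± 12.1, 663 ± 11.3 and 619 ± 19.9 in the same groups, with untreated cells lowest.

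Other genes of the pathway were read from 4 lists with 48 entries, all of which were tested. Of 11 assembly and associated factors without a PSM symbol, 2 rose and 2 fell with lefamulin over M5 (18.2% each, under the 33.6% and 34.3% of all genes tested). With retapamulin over M5, 4 rose (36.4%, near the 34.1% of all genes) and 2 fell (18.2%, beside 38.0%), and with M5 over untreated cells 8 rose (72.7%, beside 28.3%) and 2 fell (18.2%, beside 26.9%). PAAF1, which binds 19S ATPases, averaged 7.84 ± 1.02 CPM with lefamulin, 9.26 ± 0.534 with retapamulin, 17.9 ± 0.344 in M5 alone and 24.6 ± 1.40 in untreated cells. Its fold change was -1.19 and -0.95 with lefamulin and retapamulin over M5 and -0.46 with M5 (edgeR adjusted p = 1.18e-11, 4.79e-10 and 2.36e-05). UCHL5, a deubiquitinase of the 19S particle, fell, with fold changes of -0.56 and -0.53 with lefamulin and retapamulin. AKIRIN2, which brings proteasomes into the nucleus, rose by 0.26, 0.36 and 0.44 in the 3 comparisons, and POMP, the core maturation factor, rose by 0.36 with M5.

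Of 15 ubiquitin genes, activating enzymes and shuttle factors, 6 rose and 6 fell with lefamulin over M5 (40% each, near the 33.6% and 34.3% of all genes tested). With retapamulin over M5, 8 rose (53.3%, beside 34.1%) and 5 fell (33.3%, near 38.0%), and with M5 over untreated cells 8 rose (53.3%, beside 28.3%) and 1 fell (6.67%, beside 26.9%). SQSTM1, a receptor that takes ubiquitinated cargo to autophagy, averaged 522 ± 20.7 CPM with lefamulin, 801 ± 9.11 with retapamulin, 271 ± 3.35 in M5 alone and 284 ± 6.31 in untreated cells, and rose by 0.95 and 1.56 with lefamulin and retapamulin. UBQLN2, a shuttle factor, and UBA6, an activating enzyme, rose by 0.51 and 0.43 with M5.

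Of 8 genes in the transcriptional control of the proteasome, 6 rose (75%, beside 33.6% of all genes tested with lefamulin and 34.1% with retapamulin) and 2 fell (25%, beside 34.3% and 38.0%) with each compound over M5. With M5 over untreated cells 5 rose (62.5%, beside 28.3%) and 1 fell (12.5%, beside 26.9%). NFE2L1 averaged 581 ± 7.38 CPM with lefamulin, 541 ± 11.4 with retapamulin, 466 ± 14.0 in M5 alone and 290.4 ± 5.38 in untreated cells, with fold changes over M5 of 0.32 and 0.22. MAFF, a small partner of NFE2L1, rose by 1.42 and 1.64 with lefamulin and retapamulin over M5 and by 1.57 with M5 over untreated cells. MAFK and MAFG, further partners, rose by 0.97 and 0.93 with lefamulin and by 1.23 and 1.30 with retapamulin. NFE2L2 fell, with fold changes of -0.34 and -0.17, and its inhibitor KEAP1 fell as well, with fold changes of -0.17 and -0.28. DDI2, the protease that releases NFE2L1, was at 0.66 and 0.74 over M5 and at -0.11 in M5 over untreated cells.

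Of 14 genes of interferon control and of peptide supply to MHC class I, 7 rose (50%, beside 33.6% of all genes tested) and 6 fell (42.9%, beside 34.3%) with lefamulin over M5. With retapamulin over M5, 6 rose and 6 fell (42.9% each, near the 34.1% and 38.0% of all genes), and with M5 over untreated cells 11 rose (78.6%, beside 28.3%) and none fell (beside 26.9%). IRF1, a transcription factor of the immunoproteasome genes, averaged 46.0 ± 1.76 CPM with lefamulin, 40.0 ± 1.86 with retapamulin, 82.2 ± 4.17 in M5 alone and 47.2 ± 2.04 in untreated cells. Its fold change was -0.84 and -1.04 with lefamulin and retapamulin over M5 and 0.80 with M5 over untreated cells (edgeR adjusted p = 1.31e-13, 1.91e-15 and 4.69e-13). STAT2 and NLRC5, an activator of MHC class I genes, rose by 1.30 and 1.29 with lefamulin and by 1.29 and 1.55 with retapamulin. TAP1 and TAP2, which carry peptides into the endoplasmic reticulum, rose by 0.78 and 0.67 with M5, and TAP2 fell, with fold changes of -0.70 and -0.44 with lefamulin and retapamulin. The genes of this list thus did not all move in the direction of PSMB8, PSMB9 and PSMB10.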

How the data were processed

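RNA sequencing of 12 HaCaT libraries was analysed, 3 in each of 4 groups given by the labels. Per the submitters' processing notes HISAT2 and HTSeq were used; neither versions nor genome build, annotation or strandedness were stated. Because the extraction protocol speaks of mouse epidermis whereas each sample is labelled HaCaT, that protocol was set aside. The table of whole-number counts deposited by the authors holds 22545 gene symbols with no normalization. The FPKM table deposited by the authors was proportional, within each gene, to the count over the library's total, with a coefficient of variation of at most 3.92e-07 over 20422 genes, so FPKM carries no composition scaling.

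The count analysis used edgeR 4.0.16 under R 4.3.3. The filter filterByExpr kept 14207 genes and left out 8338. Libraries were scaled by TMM, 1 quasi-likelihood model with 4 group means was fitted to the 12 libraries, and 6 comparisons were tested, with Benjamini-Hochberg adjustment over all genes tested in each. An adjusted p under 0.05 is called. The steps were tested on simulated data. Alternatives were library totals, RLE size factors, DESeq2 1.42.0, other count filters, fits of the 2 groups alone, a replicate block, limma 3.58.1 on log2 FPKM with a pseudocount of 1 or 0.1, and leaving out each library. Ratios of subunit pairs were compared by exact permutation tests. Their alternatives were FPKM with a pseudocount of 1 or 0.1, leaving out libraries, and a replicate block. The block cannot change a difference of means between groups of equal size, yet it is counted among the alternatives. The labels give 1 batch word for all samples.

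Always named were PSMB5 to PSMB10 and PSME1 to PSME4, and in each comparison the 4 called members that rose most and the 4 that fell most; of the other lists, up to 2 called genes each way. Members named outside that rule were chosen after their values were seen. The members and lists were chosen with earlier results of these data known. Reads shared with processed pseudogenes of proteasome genes could not be examined. The interferon and NF-kB letters were each shortened by 1 base after a longer form had been searched and its matches seen; the longer forms were rarer over all promoter windows, and the interferon form matched as many member windows. Sums of FPKM divided by the TMM factor were added after the data were seen. Some listed genes are not reported here.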

Additional observations from a re-analysis of the deposited data

How the results depend on the processing

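The counts of called members and the subunit ratios were put through alternatives. In 252 of these, a count stayed near the one reported or a ratio difference kept its sign. In the other 48, a count moved further. Ratios were judged by sign alone, and none changed sign, while counts were not judged for a reversal. For ratios, the FPKM alternatives change only the pseudocount and the block changes nothing, so these could hardly turn a sign. Of the alternatives for named members, 1260 kept the sign and the outcome, which was either called or not called. A call was lost in 71 and gained in 31, and 46 changed sign. The falls of PSMB8, PSMB9 and PSMB10 below M5 and below untreated cells kept direction and call throughout. Most moves came with library totals or FPKM, which carry no composition scaling. In M5 against untreated cells, higher members numbered 9 on library totals, 8 on log2(FPKM + 1) and on log2(FPKM + 0.1) and 7 on FPKM without a filter, and lower members 15, 14, 14 and 13; lower members were 1 without a filter on counts, 2 in the fit of the 2 groups alone, and 2 to 4 with a library left out (2 without untreated replicate 3 or M5 replicate 2). With lefamulin over M5, higher members were 2 on library totals, on FPKM and without a filter, and 2 to 4 with a library left out (2 without M5 replicate 1 or 2 or lefamulin replicate 2 or 3). With lefamulin over retapamulin, higher members were 16 on library totals and 16, 17 and 15 on FPKM, lower ones 1 on totals and 3, 3 and 2 on FPKM, and with a library left out 2 to 4 and 9 to 15 (2 and 9 without retapamulin replicate 3). Over untreated cells, lefamulin gave 3 higher and 42 lower on totals and FPKM, and retapamulin 2 higher and 42 lower (41 on FPKM without a filter), with 17 higher by DESeq2.

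Changes of sign were at most 0.10 in size. On library totals and FPKM, M5 over untreated gave -0.10 for PSMB6, a call in the other direction (adjusted p 0.00483 to 0.0107 by edgeR and limma), where TMM gave 0.01 and no call. In that comparison they also gave -0.026 for PSME1 and -0.070, -0.065 and -0.068 for PSME4, retapamulin over M5 gave -0.014 for PSMB7, and lefamulin over retapamulin gave 0.058, 0.050 and 0.054 for PSMB9, 0.029 and 0.028 for PSMB7 and 0.019 and 0.018 for PSME4. RLE size factors and DESeq2 gave -0.012 for PSMB5, -0.016 for PSME1 and -0.023 for PSME3 in lefamulin over retapamulin, and 0.0058 and 0.0059 for PSMB5 in retapamulin over untreated. With a library left out, M5 over untreated ran from -0.0093 to 0.036 for PSMB6 and from -0.017 to 0.093 for PSME4. Lefamulin over retapamulin ran from -0.070 to 0.030 for PSMB9, -0.013 to 0.047 for PSMB5 and -0.0076 to 0.022 for PSME3, and PSMB5 over untreated ran from -0.056 to 0.014 with lefamulin and -0.080 to 0.0017 with retapamulin.

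The replicate numbers are not said to pair the samples, and over 18 pairs with the same number the correlation of deviations was -0.144 to 0.184, against -0.271 to 0.26 for other pairs; a library correlated best with its own number in 11 of 36 cases. With the replicate block, higher and lower members numbered 4 and 35 for lefamulin over M5, 6 and 31 for retapamulin over M5, 22 and 4 for M5 over untreated, 4 and 15 for lefamulin over retapamulin, 5 and 24 for lefamulin over untreated and 11 and 18 for retapamulin over untreated. With 3 libraries a group, exact tests of ratios cannot go below 0.1. PSMG4, with 8.83 to 20.5 CPM, had the widest intervals of the members tested.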
